A study of Mus musculus with 42 samples.

Results

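Gene expression was compared between hippocampi of wild-type (WT) mice given an inhibitor of the phosphodiesterase PDE10 (PDE10i, 6 arrays, numbered 10 to 15) and hippocampi of WT mice given vehicle (Veh, 6 arrays, numbered 1 to 6). These 12 arrays were chosen by their titles from the 42 of the series, and 18193 genes were tested. All mice were of the strain C57BL6, and the tissue had been dissected under magnification and snap-frozen before total RNA was extracted. Further groups were used to ask where the response differs: hippocampus of mice labelled as PDE10A knockouts (KO) with inhibitor (5 arrays) or vehicle (5 arrays), and WT striatum with inhibitor (6 arrays) or vehicle (5 arrays). The sources used here do not give the compound, its dose, the time between dosing and dissection, the age or sex of the mice, or the removed part of Pde10a. Nothing in the labels ties each array to a mouse of its own. The p-values therefore cover the spread among these arrays, which may be technical, and the number of arrays limits the precision. Values are log2 signals as deposited, a difference is the mean of the inhibitor arrays minus the mean of the vehicle arrays, and errors on differences are standard errors (SE).

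PDE10A breaks down cAMP and cGMP, the second messengers that act downstream of many receptors. It is most abundant in the projection neurons of the striatum and much scarcer in the hippocampus. When a phosphodiesterase is blocked, cAMP can build up and activate protein kinase A, which phosphorylates the transcription factor CREB. CREB binds the cAMP response element, whose palindromic form is TGACGTCA, and drives early response genes such as Fos and Nr4a1 and peptide genes such as Sst. In the hippocampus this pathway is known for its part in synaptic plasticity and memory.

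The element is shown in the promoters of 4 genes of this pathway, because these genes would be among the direct readouts of CREB. Dusp1 codes for a phosphatase that switches off MAP kinases, Btg2 for an antiproliferative protein induced with the early genes, Scg2 for a granin of dense-core vesicles and Sst for the peptide somatostatin. The sequences are RefSeq promoters of build GRCm38.p6, each from 250 bases before to 50 bases after the start of the gene, written 5′ to 3′ on the gene's strand, with the element in capitals.

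Dusp1, chr17:26508423-26508722, minus strand: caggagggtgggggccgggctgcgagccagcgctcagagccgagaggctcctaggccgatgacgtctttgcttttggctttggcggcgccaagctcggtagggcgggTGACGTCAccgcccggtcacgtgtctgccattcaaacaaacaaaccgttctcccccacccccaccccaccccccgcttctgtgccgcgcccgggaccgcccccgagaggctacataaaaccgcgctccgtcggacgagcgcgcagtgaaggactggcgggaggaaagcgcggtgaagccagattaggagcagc
Btg2, chr1:134079106-134079405, minus strand: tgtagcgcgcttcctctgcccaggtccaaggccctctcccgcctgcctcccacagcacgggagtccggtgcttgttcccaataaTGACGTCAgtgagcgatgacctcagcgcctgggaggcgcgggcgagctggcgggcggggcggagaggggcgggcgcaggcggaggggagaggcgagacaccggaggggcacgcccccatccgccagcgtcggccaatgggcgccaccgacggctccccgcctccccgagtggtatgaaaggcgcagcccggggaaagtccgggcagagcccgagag
Scg2, chr1:79439977-79440276, minus strand: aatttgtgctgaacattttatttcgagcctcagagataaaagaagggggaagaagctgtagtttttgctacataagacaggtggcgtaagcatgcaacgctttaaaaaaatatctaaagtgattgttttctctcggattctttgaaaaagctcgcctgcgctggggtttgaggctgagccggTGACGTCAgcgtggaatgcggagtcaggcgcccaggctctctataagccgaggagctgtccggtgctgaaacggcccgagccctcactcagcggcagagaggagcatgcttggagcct
Sst, chr16:23890795-23891094, minus strand: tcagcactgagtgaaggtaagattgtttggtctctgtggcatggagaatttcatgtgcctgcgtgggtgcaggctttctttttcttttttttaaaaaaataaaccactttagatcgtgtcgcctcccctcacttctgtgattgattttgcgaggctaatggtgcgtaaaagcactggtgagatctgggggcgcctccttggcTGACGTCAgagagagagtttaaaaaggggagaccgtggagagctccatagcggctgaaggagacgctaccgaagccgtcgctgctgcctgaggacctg

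Counted from the start of the gene, the element begins at -143 in Dusp1, -166 in Btg2, -68 in Scg2 and -48 in Sst. Of 32851 such windows, 588 (1.79%) hold TGACGTCA, which reads the same on both strands, and 6837 (20.8%) hold its core TGACG on either strand. A match describes the letters of a window and does not show that CREB binds there.

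Several arrays stood apart from the others of their label, and results that rest on them are given with and without them. The tissue label held on the whole: all 7 striatal projection neuron markers were lower in WT vehicle hippocampus than in WT vehicle striatum past the threshold, and all 8 dentate gyrus markers and 8 of 10 markers of the CA fields were higher. PDE10i 13 was the exception. Its mean over the dentate gyrus granule cell markers was 6.37, against 8.17 to 9.02 on the other inhibitor arrays and 8.21 to 8.85 on the vehicle arrays. Prox1, the transcription factor that defines granule cells, had a log2 signal of 4.89 on PDE10i 13, against 6.92 to 7.70 on the other inhibitor arrays and 6.72 to 7.60 on the vehicle arrays. The CA field markers averaged 8.27 on that array, below the 8.87 to 9.19 of the vehicle arrays, and its cortical layer markers averaged 9.55, above all others. Veh 1 had a Gfap signal of 12.56, against 9.97 to 10.73 on the other vehicle arrays, where Gfap is the intermediate filament of astrocytes. Veh 6 had a thalamic marker mean of 7.89, above every other WT hippocampal array. Choroid plexus markers, such as Ttr, ranged widely in both groups, with array means of 4.91 to 9.28 with inhibitor and 5.77 to 9.10 with vehicle. In bulk tissue, fewer cells of a type and less RNA per cell cannot be told apart.

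**Figure D1:**
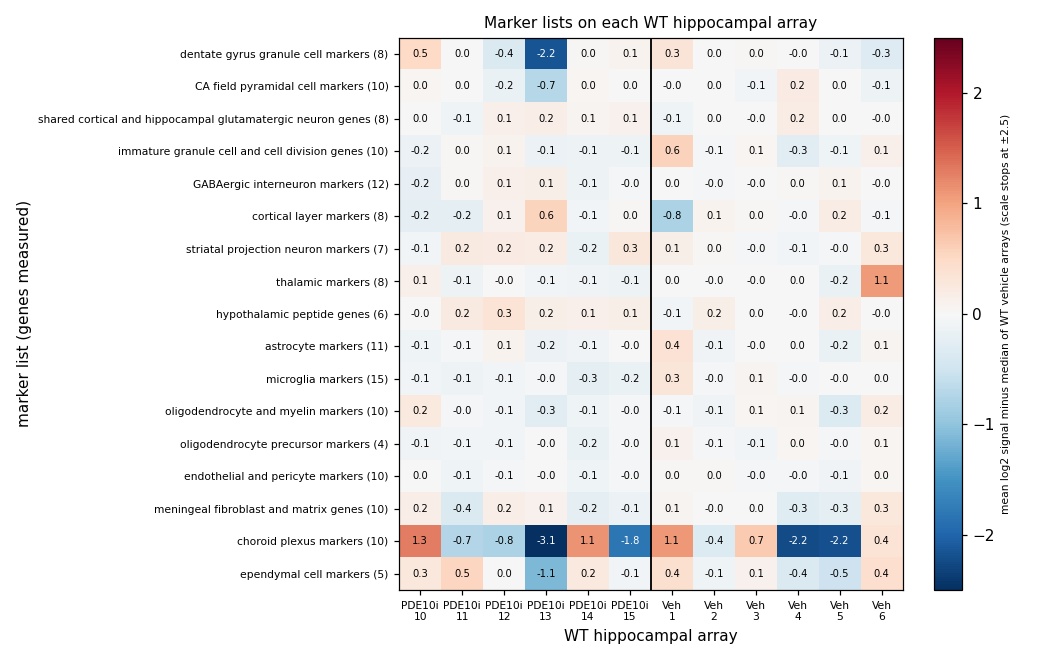
Mean log2 signal of each marker list on each WT hippocampal array (columns, inhibitor arrays 10 to 15 left of vehicle arrays 1 to 6), minus the median of the vehicle arrays. Colours stop at ±2.5. The dentate gyrus list stands low on PDE10i 13 alone, the thalamic list high on Veh 6 alone, and the choroid plexus list varies in both groups.

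Pde10a, which codes for the inhibited enzyme, and other genes of its chromosome set some arrays against their labels. Pde10a had log2 signals of 8.94, 9.12, 9.88, 8.54, 9.84 and 9.29 on PDE10i 10 to 15, against 8.99, 9.02, 9.01, 8.94, 9.04 and 9.02 on Veh 1 to 6. PDE10i 12 and 14 lay well above all vehicle arrays and PDE10i 13 below them. The group difference was 0.26 ± 0.19 (adjusted p = 0.613), and without PDE10i 12 and 14 it was -0.03. The signal averaged 9.69 ± 0.14 on KO inhibitor arrays and 9.47 ± 0.45 on KO vehicle arrays (SD, n = 5 each), so this probe set does not show the loss of the gene. A dimmer probe set of Pde10a differed by 0.41 ± 0.16 with all arrays (limma, unadjusted p = 0.0149, adjusted p = 0.403 over all probe sets). Its remaining probe sets gave 0.12 ± 0.23, 0.04 ± 0.12 and 0.02 ± 0.24. A score over 15 other genes of chromosome 17, chosen in striatum for their difference with the genotype label and scaled so that the median WT vehicle array is 0 and the median KO inhibitor array is 1, was 1.04 on PDE10i 12 and 0.79 on PDE10i 14. The other inhibitor arrays scored -0.07 to 0.23 and the vehicle arrays -0.16 to 0.21. Among arrays labelled KO, vehicle arrays 25 and 26 scored near 0 (-0.0016 and 0.11), and the others scored 0.75 to 1.05. PDE10i 12 and 14 are therefore called WT only by their labels, which holds for every direction given below.

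**Figure D2:**
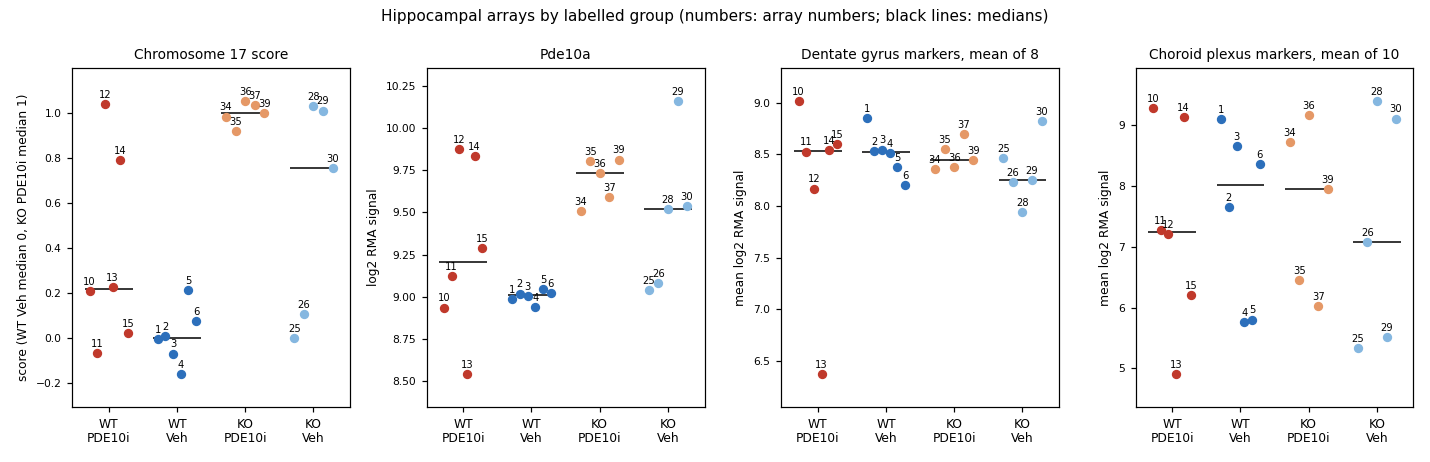
Chromosome 17 score, Pde10a signal (log2), and mean log2 signal of the dentate gyrus and choroid plexus markers on each hippocampal array, by labelled group, with array numbers and group medians (black lines). PDE10i 12 and 14 score 1.04 and 0.79 among the KO arrays, and PDE10i 13 has the lowest dentate gyrus mean, 6.37.

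No gene differed between inhibitor and vehicle in WT hippocampus past an adjusted p of 0.05 in limma (0 of 18193, 0.0%), and the smallest adjusted p was 0.139. At an unadjusted p under 0.05 there were 1948 genes (10.7%), 1082 higher (5.95%) and 866 lower (4.76%) with the inhibitor. Differences were small: 28 genes differed by more than 0.5 on the log2 scale and 4 by more than 1. The 95% confidence interval lay within ±0.5 for 17561 genes (96.5%) and within ±1 for 18122 genes (99.6%), and its median half-width was 0.145. With each array weighted by how closely it followed the fit of its group, 154 genes passed the threshold (0.846%), 88 higher (0.484%) and 66 lower (0.363%). The weights were 0.543, 1.39, 1.33, 0.324, 1.42 and 1.90 on PDE10i 10 to 15, and 0.570 to 1.58 on the vehicle arrays. PDE10i 12 and 14, whose score opposed their label, thus counted for more than PDE10i 10 and 13. Without PDE10i 10, 14 genes passed, all higher with the inhibitor and all among those 154, and 3085 had an unadjusted p under 0.05. Without PDE10i 12 and 14, none passed and the number at an unadjusted p under 0.05 was 894.

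The genes at an unadjusted p under 0.05 were split by signal level. The 1082 higher genes had a median level of 5.02 and a median difference of 0.19, and the 866 lower genes a median level of 7.99 and a median difference of -0.15, against a median level of 7.07 over all genes. Genes were ranked by level into 4 bins of like size. In the lowest bin, 72.8% had a positive difference, with 522 higher and 51 lower at an unadjusted p under 0.05, and in the third bin 27.7% did, with 64 higher and 373 lower. The split moved with the arrays and the scaling. Without PDE10i 12 and 14, the lowest bin had 250 higher and 45 lower and the third bin 33 higher and 149 lower. When quantile normalization was repeated over the deposited values, 59.2% of the lowest bin and 51.9% of the third bin were positive, and the counts over all genes were 1127 higher and 456 lower. The mean of the BioB hybridization control probe sets, which lie among the dim signals, was 3.44 to 3.80 on inhibitor arrays and 3.47 to 3.68 on vehicle arrays. With that mean as a covariate, 695 genes had an unadjusted p under 0.05. In that fit 61.4% of the lowest bin were positive, with 192 higher and 60 lower, and 37.2% of the third bin, with 22 higher and 102 lower.

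**Figure D3:**
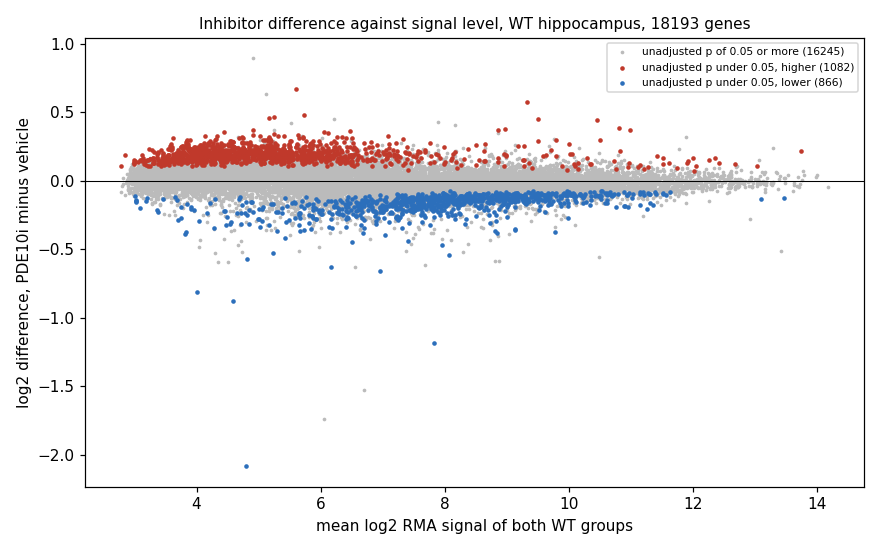
Log2 difference (inhibitor minus vehicle, vertical axis) against mean log2 signal of the WT hippocampal groups (horizontal axis) for 18193 genes. Genes at an unadjusted p under 0.05 are red where higher (1082) and blue where lower (866). The red genes lie mostly at low signal and the blue genes mostly at middle and high signal.

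The higher genes with the smallest p were dim, and none passed the threshold. Gprc5d, an orphan G protein-coupled receptor, had log2 signals of 5.71 (lowest), 5.80 (median) and 5.89 (highest) on inhibitor arrays, against 5.36, 5.48 and 5.54 on vehicle arrays. The groups did not overlap, which held for 52 genes in this direction (0.286%), and the difference was 0.33 ± 0.06, a ratio of 1.26 (adjusted p = 0.139). The pseudogene Olfr75-ps1 differed by 0.33 ± 0.06 (adjusted p = 0.139) at a level near 4. Grhl2, a transcription factor of epithelia, differed by 0.29 ± 0.06 (adjusted p = 0.191), with PDE10i 10 at 5.43 apart from 5.66 to 5.75 on the other inhibitor arrays. Its other probe sets gave 0.19 ± 0.06, 0.03 ± 0.09 and 0.01 ± 0.06. The 9 others named by the rule were Ccdc42os, Inava, Barx1, Cmtm1, Syngr4, Fblim1, Insrr, Tead2 and Fam169b, with differences of 0.23 to 0.31. The other, dimmer probe set of Inava gave -0.01 ± 0.09. Insrr codes for a receptor tyrosine kinase of the insulin receptor family and Tead2 for a transcription factor of the Hippo pathway.

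Among the lower genes, Kti12, which takes part in wobble-base modification of tRNA through the Elongator complex, had log2 signals of 7.32, 7.37 and 7.43 (lowest, median and highest) with inhibitor, against 7.50, 7.61 and 7.68 with vehicle. The groups did not overlap, as for 48 genes in this direction (0.264%), and the difference was -0.23 ± 0.05 (adjusted p = 0.205). Of the 12 lower genes named by the rule, 4 lie on chromosome 17 with Pde10a: Kctd5, Lix1, Gfer and Trem2. Lix1 had 7.44, 7.60 and 7.75 with inhibitor, against 7.79, 7.92 and 8.11 with vehicle, a difference of -0.32 ± 0.07 (adjusted p = 0.205). PDE10i 14 and 12 were the lowest for Lix1, at 7.44 and 7.53, and the KO means were 7.49 ± 0.13 with inhibitor and 7.54 ± 0.13 with vehicle (SD, n = 5 each). Without PDE10i 12 and 14 the Lix1 difference was -0.26. For Kctd5, an adaptor of cullin ubiquitin ligases, the difference was -0.27 ± 0.06, and -0.20 without those arrays. For Gfer, a sulfhydryl oxidase of the mitochondrial import pathway, it was -0.25 ± 0.06, and -0.21 without them, while its other probe set gave 0.05 ± 0.07. None of these genes is in the score. Over chromosome 17, 107 of 834 genes (12.8%) had an unadjusted p under 0.05, against 10.7% of all genes, 13.3% on chromosome 7 and 13.2% on chromosome 16. The part of genotype in these differences was not tested.

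Tst, the mitochondrial sulfurtransferase rhodanese, was nearly constant with inhibitor at 8.55, 8.59 and 8.63, against 8.64, 8.83 and 9.11 with vehicle, a difference of -0.25 ± 0.06 (adjusted p = 0.235). Lgals9, the lectin galectin-9, had 5.89, 6.02 and 6.10 with inhibitor, against 6.20, 6.34 and 6.60 with vehicle, a difference of -0.34 ± 0.08 (adjusted p = 0.259). The vehicle arrays were higher in both genes without overlap. Tmem185b, Folh1, Lockd, Tmtc2 and Atp13a5 completed the 12, with differences of -0.30 to -0.18. All 24 named genes kept the sign of their difference in each of the 26 alternatives that tested them. They were chosen for the smallest p on these same arrays, so the kept signs follow largely from that choice and are no separate support. Those with a mean level under 6, among them Gprc5d and Folh1, were not tested where such genes were left out.

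Cyclic nucleotide turnover showed no gene past the threshold. Of 16 phosphodiesterase genes other than Pde10a, 2 were higher and 0 lower at an unadjusted p under 0.05, against 5.95% and 4.76% of all genes. The median difference was 0.03, against -0.01 over all genes. Pde3a, which codes for a cGMP-inhibited cAMP phosphodiesterase, had 4.33, 4.51 and 4.68 with inhibitor, against 4.06, 4.31 and 4.49 with vehicle, a difference of 0.19 ± 0.07 (adjusted p = 0.398). Pde11a, which hydrolyses both cyclic nucleotides, differed by 0.17 ± 0.07 (adjusted p = 0.398). The groups overlapped for both of these dim genes. By the means of the WT groups, Pde3a lies in the lowest level bin and Pde11a in the second. At an unadjusted p under 0.05, 522 of 4549 genes were higher and 51 lower in the lowest bin. In the second bin, 432 of 4548 were higher and 176 lower. Other probe sets gave 0.13 ± 0.08 and -0.07 ± 0.09 for Pde3a and -0.10 ± 0.08 for Pde11a. The brighter Pde2a, Pde4b and Pde4d differed by 0.04 ± 0.08, 0.04 ± 0.09 and 0.06 ± 0.09. None of 17 genes for cyclases and their G proteins had an unadjusted p under 0.05, with differences of -0.10 to 0.10.

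Among 16 cAMP and cGMP effectors, 1 was higher and 2 lower at an unadjusted p under 0.05, against 5.95% and 4.76% of all genes. Pkib, an inhibitor of protein kinase A, had 5.27, 5.52 and 5.73 with inhibitor, against 5.49, 5.76 and 6.36 with vehicle, a difference of -0.36 ± 0.13 (adjusted p = 0.369), and -0.22 without PDE10i 13 and Veh 1. Akap5, which anchors the kinase at synapses, differed by 0.23 ± 0.10 (adjusted p = 0.443), and Ppp1r1a, an inhibitor of protein phosphatase 1, by -0.18 ± 0.09 (adjusted p = 0.462). The other, dimmer probe sets of Akap5 gave -0.13 ± 0.13 and -0.13 ± 0.13. The catalytic subunit gene Prkaca differed by -0.02 ± 0.05 and Ppp1r1b, which codes for DARPP-32, by -0.01 ± 0.16. None of 11 genes of the CREB family and its coactivators had an unadjusted p under 0.05, and Creb1 differed by -0.01 ± 0.05.

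Over all genes, 47.7% had a positive difference, and 5.95% were higher and 4.76% lower at an unadjusted p under 0.05. Of the 38 early response genes, 19 had a positive difference, 2 were higher and 1 lower at an unadjusted p under 0.05, and their median difference was -0.0007. Without PDE10i 13 and Veh 1 these were 14 positive, 2 higher and 4 lower, with a median of -0.05. With repeated quantile normalization they were 26 positive, 3 higher and 0 lower, with a median of 0.03. Fos, a subunit of AP-1, had 6.85, 7.28 and 8.86 with inhibitor, against 7.26, 7.43 and 7.97 with vehicle. The highest value was that of PDE10i 13, and the groups overlapped. The Fos difference was 0.02 ± 0.25 (95% interval -0.50 to 0.55), and -0.24 without PDE10i 13. The same array was the highest inhibitor array for Egr1 (11.91), Arc (9.51), Npas4 (7.14), Nr4a1 (10.15), Junb (7.82), Dusp1 (9.27) and Per1 (8.90). Egr1, a zinc finger transcription factor, differed by 0.12 ± 0.15 with PDE10i 13 and by -0.06 without it. For Nr4a1, a nuclear receptor induced by cAMP, these differences were 0.07 ± 0.10 and -0.04, and for Arc, a regulator of AMPA receptor traffic, 0.01 ± 0.13 and -0.12. Npas4, which is induced by calcium entry, differed by -0.28 ± 0.22 with that array and by -0.49 without it. Whether the marker profile of PDE10i 13 bears on its early gene signals was not tested.

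Of the early genes with an unadjusted p under 0.05, Fosb had 4.53, 4.83 and 5.12 with inhibitor, against 4.41, 4.64 and 4.80 with vehicle, a difference of 0.24 ± 0.09 (adjusted p = 0.369). Sik1, a salt-inducible kinase that restrains CREB coactivators, had 5.49, 5.61 and 5.69 with inhibitor, against 5.32, 5.40 and 5.60 with vehicle, a difference of 0.17 ± 0.07 (adjusted p = 0.398). Fosb and Sik1 are dim, and the groups overlapped in each. The other, dimmer probe set of Sik1 gave -0.06 ± 0.06. Nr4a3, a relative of Nr4a1, differed by -0.27 ± 0.12 (adjusted p = 0.447). Per1, a clock gene with a cAMP-inducible promoter, differed by 0.08 ± 0.08, and Crem, whose short product ICER represses cAMP-driven transcription, by -0.05 ± 0.09. None of the 12 ERK feedback genes had an unadjusted p under 0.05 at its brightest probe set, with differences of -0.18 to 0.09. A dimmer probe set of Spred2 differed by 0.41 ± 0.16 (limma, unadjusted p = 0.0171, adjusted p = 0.404 over all probe sets). Its brightest gave -0.07 ± 0.06 and the remaining ones 0.05 ± 0.07, 0.01 ± 0.07 and 0.11 ± 0.08.

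**Figure D4:**
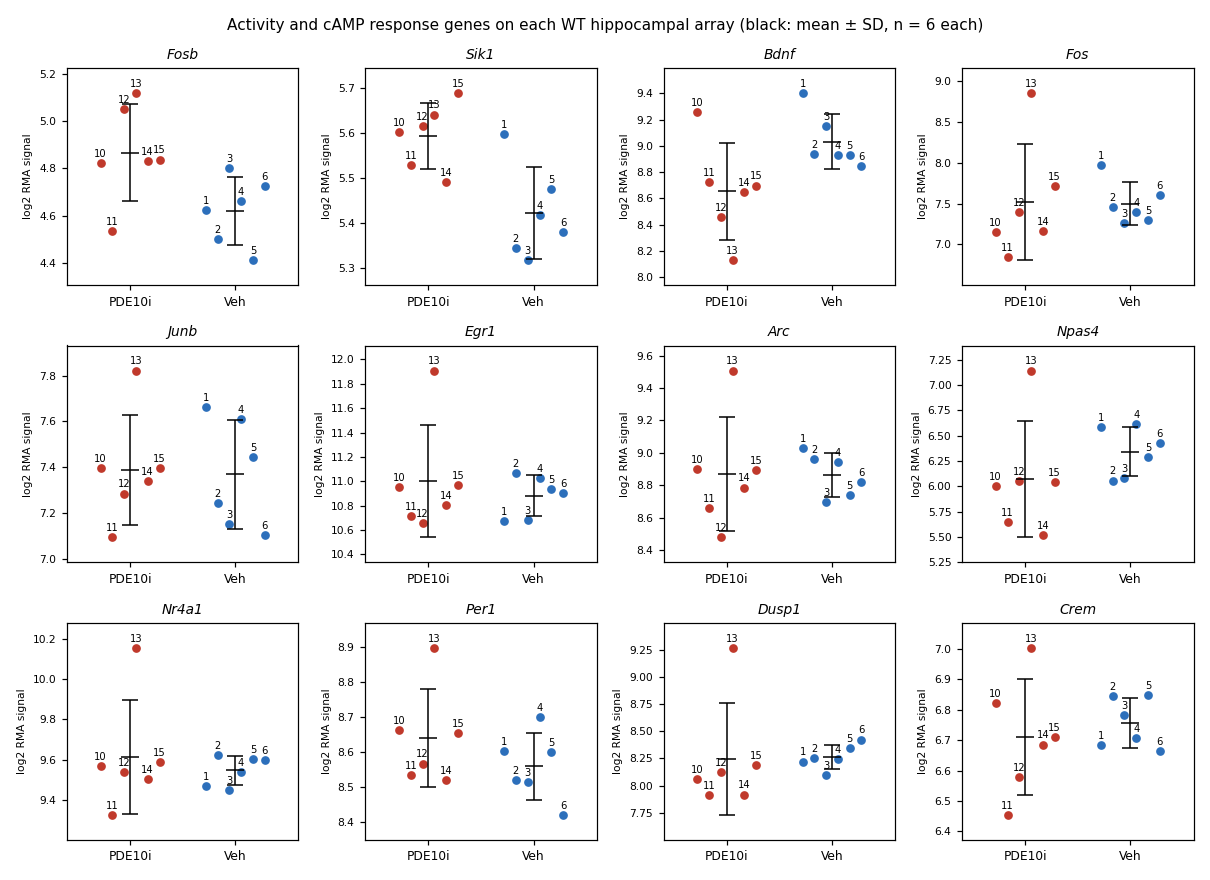
Log2 signal of 12 activity and cAMP response genes on each WT hippocampal array, inhibitor left and vehicle right, with array numbers, means and SDs (n = 6 each). PDE10i 13 is the highest inhibitor array for 10 of the 12 genes, all but Sik1 and Bdnf, and the groups overlap in each.

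Among 21 neuropeptide and neurotrophin genes, 0 were higher and 2 lower at an unadjusted p under 0.05, against 5.95% and 4.76% of all genes. Bdnf, the brain-derived neurotrophic factor, had 8.13, 8.67 and 9.26 with inhibitor, against 8.84, 8.93 and 9.40 with vehicle. PDE10i 13 was the lowest and PDE10i 10 the only inhibitor array within the vehicle range. The difference was -0.38 ± 0.14 (adjusted p = 0.379), -0.27 without PDE10i 13 and -0.14 without PDE10i 12, 13 and 14. Nptx2, an activity-regulated pentraxin of excitatory synapses, had 6.54, 6.64 and 7.25 with inhibitor, against 6.58, 7.01 and 7.49 with vehicle, a difference of -0.31 ± 0.15 (adjusted p = 0.463). Its other, dimmer probe set gave 0.02 ± 0.12.

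The genes with the cAMP response element in their promoter were no exception. Of the 31 early response genes with a promoter window 4 hold it, as do 4 of 16 peptide genes. Dusp1 had 7.91, 8.09 and 9.27 with inhibitor, against 8.10, 8.24 and 8.42 with vehicle, a difference of -0.02 ± 0.17. Btg2 differed by 0.04 ± 0.08, Maff by 0.04 ± 0.08 and Plk2 by -0.05 ± 0.07. Of the peptide genes, Scg2 had 10.62, 10.74 and 10.94 with inhibitor, against 10.66, 10.75 and 11.34 with vehicle, a difference of -0.10 ± 0.09. Sst had 10.99, 11.14 and 11.34 with inhibitor, against 10.67, 11.17 and 11.37 with vehicle, a difference of 0.04 ± 0.09. Chgb, another granin, differed by -0.08 ± 0.08 and Cartpt, the precursor of the CART peptide, by 0.16 ± 0.13. Over the 422 tested genes with the element, 15 (3.55%) were higher and 28 (6.64%) lower at an unadjusted p under 0.05, and the median difference was -0.02 at a median level of 7.90. Over the 14452 tested genes with a promoter window, 826 were higher and 715 lower, and the median difference was -0.01 at a median level of 7.17.

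Markers of the hippocampal neurons varied with the arrays included. The 8 dentate gyrus markers had a median difference of -0.36, with 2 positive. It was 0.10 without PDE10i 13 alone, and 0.12 with 6 positive without PDE10i 13 and Veh 1. Tdo2 differed by -0.63 ± 0.46, Lct, the lactase gene, by -0.58 ± 0.34, C1ql2, a secreted synaptic organizer of mossy fibres, by -0.58 ± 0.39, and Dsp, which codes for desmoplakin, by -0.52 ± 0.57. C1ql2 had a log2 signal of 6.00 on PDE10i 13, against 8.85 to 9.61 on the other inhibitor arrays and 8.58 to 10.04 on the vehicle arrays. All 10 CA field markers had a negative difference, with a median of -0.09. Their median stayed negative when any 1 array was left out, at -0.01 without PDE10i 13, and without both PDE10i 13 and Veh 1 6 of them had a positive difference. Without PDE10i 12 and 14, 1 dentate gyrus marker had a positive and 7 a negative difference, with a median of -0.45. Without PDE10i 12, 13 and 14, a choice made after seeing the data, all 8 dentate gyrus markers had a positive difference, 3 at an unadjusted p under 0.05. Over all 18193 genes, 501 were higher and 515 lower at that level in that fit. None of these lists had a member past the threshold. The cortical layer markers had a median difference of 0.14 with all arrays, 0.02 to 0.19 with any 1 array left out and -0.13 without both PDE10i 13 and Veh 1. Of 10 immature granule cell and cell division genes 3 had a positive difference, with a median of -0.13, where Mki67, a marker of dividing cells, was 6.16 on Veh 1 and 4.24 to 4.83 on the other vehicle arrays.

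Synaptic genes gave a few small differences. Of 18 glutamate receptor subunits 1 was higher and 4 lower at an unadjusted p under 0.05, against 5.95% and 4.76% of all genes. The counts were 1 higher and 1 lower with only the 2 groups compared in the fit, with repeated quantile normalization, or without PDE10i 13 and Veh 1. Gria3, an AMPA receptor subunit, had 10.77, 10.80 and 10.87 with inhibitor, against 10.56, 10.64 and 10.79 with vehicle, a difference of 0.14 ± 0.06 (adjusted p = 0.412). Grin2a, an NMDA receptor subunit, differed by -0.32 ± 0.15 (adjusted p = 0.451), the kainate receptor subunit Grik2 by -0.20 ± 0.10, Grin2c by -0.18 ± 0.09 and the metabotropic receptor Grm4 by -0.34 ± 0.16. Of 10 GABA receptor subunits 1 was higher: Gabrg3 had 6.72, 6.84 and 6.95 with inhibitor, against 6.30, 6.66 and 6.85 with vehicle, a difference of 0.23 ± 0.09 (adjusted p = 0.376). The other, dimmer probe sets of Gabrg3 gave -0.19 ± 0.14, -0.12 ± 0.13 and -0.02 ± 0.11. None of 17 presynaptic vesicle release genes, 22 potassium and HCN channel genes or 12 interneuron markers had an unadjusted p under 0.05.

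All 15 microglia markers had a negative difference, 5 of them at an unadjusted p under 0.05, with a median of -0.16. Over all genes, 47.7% were positive and 4.76% were lower at an unadjusted p under 0.05. By level, 6 of the 15 lie in the second bin, where 56.3% of genes were positive and 176 of 4548 lower, 5 in the third, where 27.7% were positive and 373 lower, and 4 in the highest, where 34.0% were positive and 266 lower. Trem2, a lipid receptor of microglia, had 6.76, 6.87 and 6.90 with inhibitor, against 6.93, 7.02 and 7.26 with vehicle, with no overlap and a difference of -0.23 ± 0.05 (adjusted p = 0.259). A dimmer probe set of Trem2 differed the other way, by 0.20 ± 0.09 at a mean of 4.85 with inhibitor and 4.65 with vehicle. Cd68, a lysosomal protein of phagocytes, had 6.19, 6.49 and 6.82 with inhibitor, against 6.60, 6.79 and 7.06 with vehicle, a difference of -0.33 ± 0.09 (adjusted p = 0.327). P2ry12, the ADP receptor of resting microglia, differed by -0.32 ± 0.09 (adjusted p = 0.33), Itgam by -0.27 ± 0.12, P2ry13 by -0.14 ± 0.06 and the fractalkine receptor Cx3cr1 by -0.0014 ± 0.06. The mean over the list was 7.88, 8.03 and 8.09 (lowest, median and highest) with inhibitor, against 8.08, 8.13 and 8.43 with vehicle. The highest vehicle array was Veh 1, and without it and PDE10i 13 the median difference was -0.10, with 2 markers positive and 4 lower at an unadjusted p under 0.05.

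Of 11 astrocyte markers 1 was higher and 1 lower at an unadjusted p under 0.05, against 5.95% and 4.76% of all genes. They were Glul, the glutamine synthetase, by 0.11 ± 0.05 (adjusted p = 0.413), and Aldh1l1, a folate enzyme of astrocytes, by -0.25 ± 0.09 (adjusted p = 0.386). None of 10 myelin, 4 oligodendrocyte precursor, 10 meningeal, 10 choroid plexus or 5 ependymal markers had an unadjusted p under 0.05, and of 10 vascular markers the tight junction gene Cldn5 did, with -0.18 ± 0.07 (adjusted p = 0.412). The choroid plexus list had a median difference of -0.20 with all arrays and 0.61 without PDE10i 13 and Veh 1. The hypothalamic peptides Avp and Hcrt differed by 0.22 ± 0.07 and 0.23 ± 0.09 at levels near 5 and 6.

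All 17 cholesterol synthesis enzymes had a negative difference, 6 of them at an unadjusted p under 0.05, with a median of -0.11 and none past the threshold. Over all genes 47.7% were positive, and 5.95% were higher and 4.76% lower at an unadjusted p under 0.05. By level, 11 of the 17 lie in the third bin, where 27.7% of genes were positive and 373 of 4548 lower, and 6 in the highest, where 34.0% were positive and 266 of 4548 lower. Sc5d, which desaturates lathosterol, had 8.48, 8.59 and 8.72 with inhibitor, against 8.71, 8.78 and 8.94 with vehicle, a difference of -0.21 ± 0.05 (adjusted p = 0.268). The groups met only at PDE10i 10 (8.72), which lay within the range of the vehicle arrays. Mvd, the mevalonate diphosphate decarboxylase, had 6.88, 7.13 and 7.30 with inhibitor, against 7.18, 7.38 and 7.44 with vehicle, a difference of -0.26 ± 0.08 (adjusted p = 0.334). Idi1 differed by -0.19 ± 0.07, Msmo1 by -0.15 ± 0.06, Cyp51 by -0.14 ± 0.05 and Sqle, the squalene epoxidase, by -0.11 ± 0.05. Without PDE10i 12 and 14, 2 were positive, 5 were lower at an unadjusted p under 0.05 and the median was -0.11. With the mean of each gene's probe sets, 2 were positive and 4 were lower at that level. Without PDE10i 12, 13 and 14, a choice made after seeing the data, all 17 were negative, with 10 at that level. With repeated quantile normalization 3 were positive, 3 were lower at an unadjusted p under 0.05 and the median was -0.07. With the BioB mean as covariate 1 was positive and 3 were lower at that level. In KO hippocampus the list's median difference was 0.05. Of 9 genes of sterol uptake and regulation 1 was higher (Nr1h3, the liver X receptor, by 0.12 ± 0.05) and 1 lower (Mylip, which targets the LDL receptor for degradation, by -0.12 ± 0.06).

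Genes of oxidative phosphorylation and of the ribosome showed small negative differences. Of 73 nuclear oxidative phosphorylation genes 12 had a positive difference, 0 were higher and 14 lower at an unadjusted p under 0.05, with a median of -0.04. In the highest of the 4 level bins, 34.0% of all genes were positive, with 64 higher and 266 lower among 4548. Ndufs4 and Ndufs8, subunits of complex I, differed by -0.14 ± 0.04 (adjusted p = 0.343) and -0.09 ± 0.03 (adjusted p = 0.353). Without PDE10i 12 and 14, 5 of the 73 were lower at an unadjusted p under 0.05, and the median was again -0.04. Of 67 listed ribosomal protein genes 38 were measured. Of these, 7 had a positive difference and 2 were lower at an unadjusted p under 0.05, against 4.76% of all genes, with a median of -0.03. By level, 32 of the 38 lie in the highest bin. The 2 lower genes, Rpl12 and Rpl14, are dimmer and lie in the second bin, so they are not typical of the list. Rpl12 had 6.40, 6.57 and 6.72 with inhibitor, against 6.70, 6.73 and 6.79 with vehicle, a difference of -0.18 ± 0.05 (adjusted p = 0.327).

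Stress and endocrine programmes had no gene past the threshold. At an unadjusted p under 0.05, 5.95% of all genes were higher and 4.76% lower, and the counts below lie beside those shares. Of 12 glucocorticoid-responsive genes 1 was higher and 1 lower at that level. Hif3a, a hypoxia-inducible factor subunit, differed by 0.25 ± 0.07 (adjusted p = 0.334) and Pdk4, a kinase that inhibits pyruvate dehydrogenase, by -0.26 ± 0.09 (adjusted p = 0.369). The other, dimmer probe sets of Hif3a gave -0.08 to 0.07. Of 20 heat shock and ER chaperones 1 was lower at an unadjusted p under 0.05, Pdia6 by -0.15 ± 0.06, and of 11 fatty acid synthesis genes 1 was, Acss2 by -0.15 ± 0.07. The other, dimmer probe set of Pdia6 gave 0.10 ± 0.09. None of 15 circadian clock or 13 interferon and inflammatory genes reached that level.

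The difference between inhibitor and vehicle was then set against that in KO hippocampus. Between genotypes, the inhibitor difference varied past the threshold in 0 genes (0.0%), where 2151 (11.8%) had an unadjusted p under 0.05, and with a smallest adjusted p of 0.266. In KO hippocampus alone 0 genes passed (0.0%) and 695 (3.82%) had an unadjusted p under 0.05. The inhibitor difference of Kti12 was -0.23 ± 0.05 in WT and 0.15 ± 0.05 in KO, and the difference between them was -0.38 ± 0.07 (adjusted p = 0.266). For Gprc5d it was 0.33 ± 0.06 in WT and 0.003 ± 0.06 in KO, and the difference between them was 0.33 ± 0.09 (adjusted p = 0.325). Kti12 and Gprc5d were named for their WT values, which enter this comparison, so only their KO values are free of the choice. Without the 4 arrays whose chromosome 17 score went against their label, 692 genes had an unadjusted p under 0.05 for the difference between genotypes and 0 passed. Without PDE10i 13 of WT 1 gene passed, and without KO vehicle 26 1370 had an unadjusted p under 0.05.

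In striatum, where the target is abundant (Pde10a log2 signal 12.49 ± 0.25 with inhibitor, n = 6, and 12.32 ± 0.26 with vehicle, n = 5; SD), 33 genes passed the threshold in WT (0.181%), 18 higher (0.0989%) and 15 lower (0.0824%), and 1741 (9.57%) had an unadjusted p under 0.05. By the chromosome 17 score from hippocampal genes, 3 of the 6 striatal inhibitor arrays labelled WT went against their label: PDE10i 13 (0.59), 14 (0.79) and 15 (0.54). The other 3 scored 0.03 to 0.12 and the striatal WT vehicle arrays -0.19 to 0.11, so the striatal genes are WT genes by label only. These genes were chosen on the striatal values, so only their hippocampal values are free of the choice. In hippocampus 10 of the 33 had the striatal sign, against 44.9% of all genes, and their median difference in the striatal direction was -0.04, against 0.61 in striatum. At an unadjusted p under 0.05 there were 4 of them in hippocampus, all opposite to striatum: Ptprv (0.24 ± 0.07), Fst, which codes for the activin antagonist follistatin (0.34 ± 0.11), Otof (0.31 ± 0.14) and Prmt6 (-0.18 ± 0.08). Nnat, which codes for the membrane protein neuronatin, had 9.77, 10.36 and 10.67 with inhibitor in hippocampus, against 9.74, 10.41 and 10.64 with vehicle. Its difference was 0.03 ± 0.15 (95% interval -0.29 to 0.34), against 1.43 ± 0.17 in striatum. Clspn, a replication checkpoint adaptor, differed by -0.18 ± 0.11 in hippocampus and -1.47 ± 0.20 in striatum, and Pde1c, a calcium-dependent phosphodiesterase, by -0.24 ± 0.15 and 0.95 ± 0.16. In hippocampus the other probe set of Clspn, of like level, gave 0.07 ± 0.07. The other probe sets of Pde1c ranged there from -0.25 ± 0.10 to 0.15 ± 0.10.

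**Figure D5:**
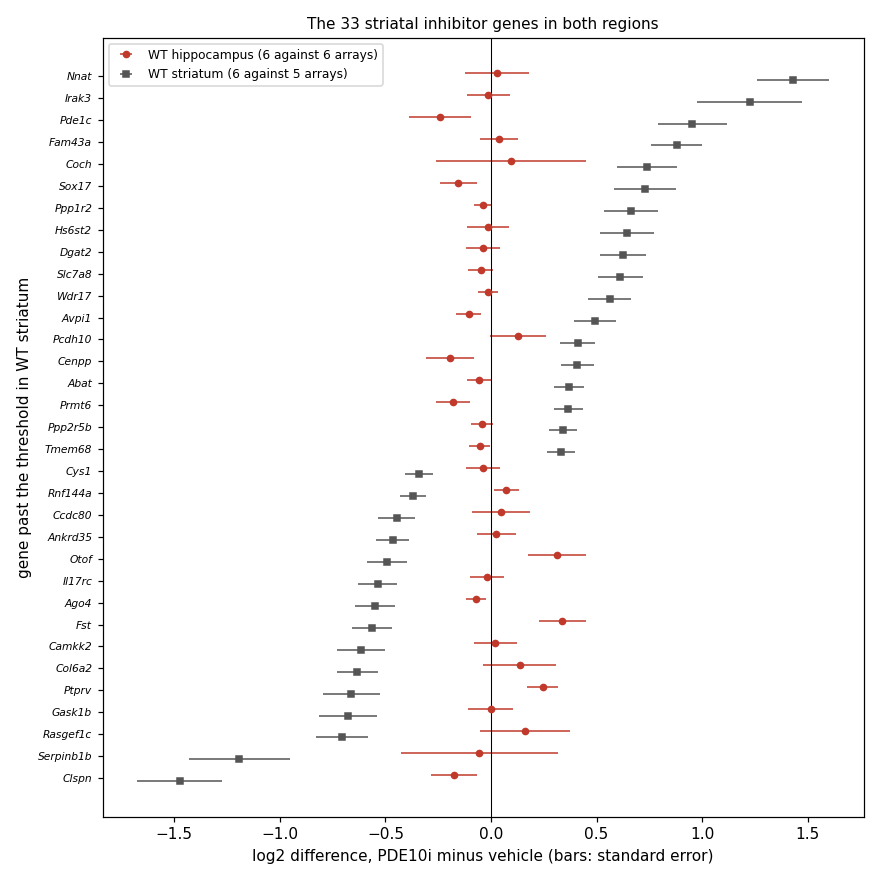
Log2 differences (inhibitor minus vehicle, with SE) of the 33 genes past the threshold in WT striatum, in WT hippocampus (red circles) and WT striatum (grey squares). The striatal values chose the genes. The hippocampal values lie between -0.24 and 0.34.

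Tested directly, the inhibitor difference of WT hippocampus minus that of WT striatum passed the threshold in 39 genes (0.214%), 11 higher (0.0605%) and 28 lower (0.154%), with 2310 (12.7%) at an unadjusted p under 0.05. Of these, 20 had also passed in striatum, and 15 had an unadjusted p under 0.05 in hippocampus. The difference between regions was -1.40 ± 0.24 for Nnat (adjusted p = 0.00513), -1.24 ± 0.27 for Irak3, which restrains signalling by Toll-like receptors (adjusted p = 0.0313), -1.20 ± 0.23 for Pde1c (adjusted p = 0.0107) and 1.30 ± 0.23 for Clspn (adjusted p = 0.00803). Of the genes named for their hippocampal p, Fblim1, a filamin-binding adaptor, had 0.29 ± 0.07 in hippocampus (its other, dimmer probe set -0.05 ± 0.08) and -0.28 ± 0.08 in striatum (difference 0.57 ± 0.10, adjusted p = 0.00803), and Atp13a5, a P5-type ATPase, had -0.24 ± 0.06 and 0.44 ± 0.14 (difference -0.68 ± 0.15, adjusted p = 0.0294). Nnat, Irak3, Pde1c and Clspn were named for their striatal values, and Fblim1 and Atp13a5 for their hippocampal values. Both values enter this comparison, so the adjusted p-values of these named genes are no separate support. The count of genes past the threshold depended on single arrays. It was 11 without PDE10i 12 and 14 of hippocampus, 91 without PDE10i 10 of hippocampus, and 122 and 154 without PDE10i 13 or 14 of striatum. It was 19, 22 and 23 without PDE10i 12, 11 or 10 of striatum, 25 without PDE10i 12 of hippocampus and 24 without Veh 3 of hippocampus.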

How the data were processed

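Arrays of 42 samples were read as biotinylated cRNA on an Affymetrix platform, per the labels' protocols. The deposited table holds log2 signals of 45101 probe sets, for which the submitters' processing notes name RMA. This method subtracts background, makes the distributions of arrays alike and summarises probes, so a change shared by most genes is removed. Array medians ran from 6.05 to 6.12. Groups were taken from the sample titles.

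Gene names came from GEO's platform annotation (34945 probe sets with 1 gene, 932 with several, 9160 with none), updated through RefSeq (GRCm38.p6, 34741 matched). Each of the 18193 genes was represented by its brightest probe set over all arrays, a choice that arose for 9010 genes. Tests used limma 3.58.1 (lmFit, eBayes) under R 4.3.3, were two-sided, and were adjusted over all genes after Benjamini and Hochberg, with a threshold of 0.05. The 4 hippocampal groups shared a fit, and regions were compared over all 42 arrays. The scripts were tested on simulated data. The ratio given for Gprc5d was computed from its deposited log2 signals.

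The members and the gene lists were chosen with earlier results of these data known, so lists are described by counts and medians beside all genes, without a test of their own. The rule for names took Pde10a, the 12 smallest p in each direction (3 clone names left out), the 2 smallest p of each list, 11 signalling genes and the 5 largest striatal changes in each direction. Other genes with values in the text were picked after their values were seen. Alternatives covered array weights, a level filter, probe set rules, scaling, left-out arrays and covariates. Groups of the series other than the 6 named in the report were used only in the fits and the array checks.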

Additional observations from a re-analysis of the deposited data

Results flagged for a closer look

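In 24 of 234 groups of 6 arrays tested, the highest or lowest array lay far from the others of its group (Dixon's test), and chance gives about 1 in 20. PDE10i 13 accounted for 11 of them. It was high for the early response genes Egr1 (11.91), Npas4 (7.14), Nr4a1 (10.15) and Dusp1 (9.27), for Nptx2 (7.255), for the cortical transcription factor gene Emx1 (8.58) and for Rasgrf2 (10.83). It was low for the dentate gyrus marker C1ql2 (6.00), the CA1 marker Fibcd1 (7.23), the choroid plexus gene Ttr (8.67) and the ciliary gene Tmem212 (4.48).

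Veh 1 accounted for 5, being high for Mki67 (6.16), the interneuron gene Pvalb (10.86) and Gpr17 of oligodendrocyte precursors (8.21), and low for Tbr1 (7.07) and Rasgrf2 (9.70). PDE10i 10 was high for the myelin gene Ermn (9.61) and for Plekhg1 (8.41), and low for Grhl2 (5.43) and the chaperone gene Hsp90aa1 (12.63). Gfer was low on PDE10i 12 (7.29) and on Veh 4 (7.56), Gria3 was high on PDE10i 15 (10.87), and Folh1 was high on Veh 6 (5.31).

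Among the named genes, 8 had an inhibitor difference that differed between WT hippocampus and WT striatum past the threshold in limma. The hippocampal minus the striatal difference was 0.57 for Fblim1, -0.68 for Atp13a5, -1.40 for Nnat, -1.24 for Irak3, -1.20 for Pde1c, -0.84 for Fam43a, 1.30 for Clspn and 0.91 for Ptprv. All but Fblim1 and Atp13a5 were named for their striatal values, and those genes for their hippocampal values. Both values enter the comparison, so passing it is no separate support.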

How the results depend on the processing

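For inhibitor against vehicle in WT hippocampus, 0 genes passed the threshold in limma under every alternative except array weights (154) and leaving out PDE10i 10 (14), so that leaving out 1 array gave 0 to 14. The 1948 genes at an unadjusted p under 0.05 became 3770 with array weights, 1121 with genes under a mean of 6 left out (11389 tested) and 3849 with every probe set tested (34945 tested), where the number tested differs by construction. Leaving out 1 array gave 1317 (PDE10i 12) to 3085 (PDE10i 10). It was 894 without PDE10i 12 and 14 and 1003 also without KO Veh 25 and 26. Alternatives chosen after seeing the data gave 1016 without PDE10i 12, 13 and 14, 1155 also without Veh 1, and 695 with the BioB mean as covariate. For the difference between genotypes, leaving out 1 array gave 0 to 1 genes past the threshold (1 without PDE10i 13) and 1370 to 3043 at an unadjusted p under 0.05, and leaving out the 4 arrays whose score opposed their label gave 692. For the difference between regions, 39 genes became 11 without hippocampal PDE10i 12 and 14, 6 without PDE10i 12, 13 and 14 (1459 at an unadjusted p under 0.05) and 376 also without striatal PDE10i 13, 14 and 15, both chosen after seeing the data, and leaving out 1 array gave 19 to 154 (1859 to 2857 at an unadjusted p under 0.05). The cause of these shifts was not tested. With the replicate block, 26 genes passed for the difference between regions. Of the pairs with the same number, 6 of 20 correlated above 0.1, and 2 of 20 arrays correlated best with their own number. Correlations across different tissues cannot decide whether a number names the same mouse. The chromosome 17 scores in hippocampus and striatum were alike for KO Veh 25 (-0.0016 and 0.098) and PDE10i 14 (0.79 and 0.79). They were unlike for PDE10i 12 (1.04 and 0.03) and KO Veh 26 (0.11 and 0.80). Of 117 named genes, 81 kept their sign in each of the 26 alternatives that tested them and 27 passed the threshold with array weights. Of the list medians under the alternatives, 951 moved by less than the spread and 11 by more. With 6 arrays a group the median 95% interval, not adjusted for the number of genes, reached 0.145 to either side. Smaller differences of a typical gene could therefore not be told from 0. With the adjustment over all genes larger ones could not either: Gprc5d, at 0.33 ± 0.06, had an adjusted p of 0.139 in limma.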
